A study of Drosophila melanogaster with 144 samples.

Results

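The heads of female flies of an inbred Drosophila melanogaster line, DGRP_892, were compared with those of females from a reference culture, w1118; Canton-S B (Canton-S B below). All 72 female RNA-seq libraries were taken, out of 144 libraries in the series: 36 of DGRP_892 and 36 of Canton-S B, with 3 libraries at each of 12 circadian times per line. DGRP_892 comes from the Drosophila Genetic Reference Panel and was studied for its long circadian period, while Canton-S B keeps a 24-h period. Flies of both lines were adult virgins, sorted by sex, kept at 25 °C for 3 days of 12 h light and 12 h dark and then 3 days in constant darkness, and frozen at 2-h steps. Each library came from 150 pooled heads, and the collection was repeated 3 times to give the biological replicates. The age in days is not stated in these sources. The 72 male libraries of the same design were used to ask which differences between the lines in females were not the same in males. Each line is 1 genetic background, so a difference belongs to these 2 lines.

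A fly head holds the compound eyes and brain with their neurons and glia, and also muscle, haemocytes (blood cells), cuticle and the fat body, the organ that combines the tasks of liver and fat tissue. The head fat body is a sexually dimorphic tissue: under control of the sex determination genes transformer and doublesex it makes yolk proteins in females, and it carries other genes with a bias to one sex. It also makes lipid carriers, storage proteins, enzymes that detoxify plant and insecticide compounds, and secreted immune peptides. Female flies carry long-chain diene pheromones on the cuticle, made by a fatty acid synthase, desaturases and elongases of cells under the cuticle.

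Female libraries held 11.7 to 36.5 M read counts in genes, with a median of 15.7 M. The white gene w, an eye pigment transporter that w1118 flies lack, had a median of 29.4 CPM (read counts scaled to library size) in DGRP_892 females and 0.253 CPM in Canton-S B females. The 3 yolk protein genes Yp1, Yp2 and Yp3 took 5.26 to 12.5% of the counts in DGRP_892 females and 2.83 to 10.6% in Canton-S B females, and at most 0.444% and 0.811% in males of DGRP_892 and Canton-S B. One Canton-S B female library, replicate 2 at circadian time 4 (CT4), stood apart in heat shock genes, with 4450 CPM of Hsp68 against 68.5 CPM in the next highest Canton-S B female library. Another, replicate 3 at CT20, had 92.1 CPM of lncRNA:roX1, an RNA of the male X chromosome dosage compensation complex, against 40.7 CPM in the next highest and at least 1220 CPM in male libraries. Calls of named genes that change without 1 of these 2 libraries are given both ways. Markers of testis and accessory gland summed to 0.465 to 2.64 CPM in DGRP_892 females and 0.384 to 2.41 CPM in Canton-S B females, and markers of gut to 2.1 to 31.2 CPM and 3.15 to 6.94 CPM in the same order, while those of photoreceptors summed to 93000 to 129000 CPM and 71700 to 95400 CPM.

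Of 10894 genes tested, 6529 (59.9%) differed between the lines in females, at an adjusted p under 0.05 in edgeR's quasi-likelihood test with Benjamini-Hochberg adjustment. DGRP_892 females were higher than Canton-S B females for 3222 genes (29.6%) and lower for 3307 (30.4%). Without the Canton-S B female library of CT4 replicate 2 these counts were 3016 higher and 3555 lower. Without that of CT20 replicate 3 they were 2986 and 3468. Most of the differences called with all libraries were small: the median absolute log2 fold change over all genes tested was 0.17 in females and 0.15 in males, and 878 genes (8.06%) differed at least 2-fold, 534 (4.9%) higher and 344 (3.16%) lower in DGRP_892. For 343 genes (3.15%) the 36 DGRP_892 and 36 Canton-S B female libraries did not overlap: 2.12% of all genes tested (231 genes) were higher in DGRP_892 without overlap, and 1.03% were lower. In males 5977 genes (54.9%) were called, 2919 higher (26.8%) and 3058 lower (28.1%) in DGRP_892. Libraries fell into a deeper and a shallower class by run of library numbers, and the female count was 4275 genes in the 25 deeper female libraries and 5737 in the 47 shallower ones. Fits within a class used a mean and 24-h cosine terms per line and sex, not the 48 group means of the main fit. Scaling on the ERCC spike-in RNA called 2645 genes in females, all of them among the 6529. The spike-in share of counts varied between libraries, at 0.381 ± 0.187% in DGRP_892 females and 0.425 ± 0.18% in Canton-S B females (mean ± SD). The median log2 fold change over all genes tested was 0.0075 with that scaling and -0.0015 in the main fit. Why calls were lost with it was not tested.

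The female difference was mostly shared with males. Of the 878 genes that differed at least 2-fold in females, 826 were called in the same direction in males. The test of the female line effect minus the male line effect called 1380 genes (12.7%), 758 with the more positive effect in females (6.96%) and 622 with the more negative one (5.71%), and 187 of them were among the 878. In the deeper libraries alone that test called 66 genes, and in the shallower libraries alone 992, both from the fits within a class. A difference called in females, not called in males and called for the sex difference was found for 392 genes (3.6%), of which 8 were at least 2-fold higher (0.0734%) and 9 at least 2-fold lower (0.0826%) in DGRP_892 females. A further 96 genes (0.881%) were called in both sexes with opposite signs. With ERCC scaling 63 sex differences more positive and 45 more negative in females were called, and 6 opposite genes. In the deeper libraries alone 7 opposite genes were called, and without replicate 2 and replicate 3 there were 48 and 46.

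**Figure D1:**
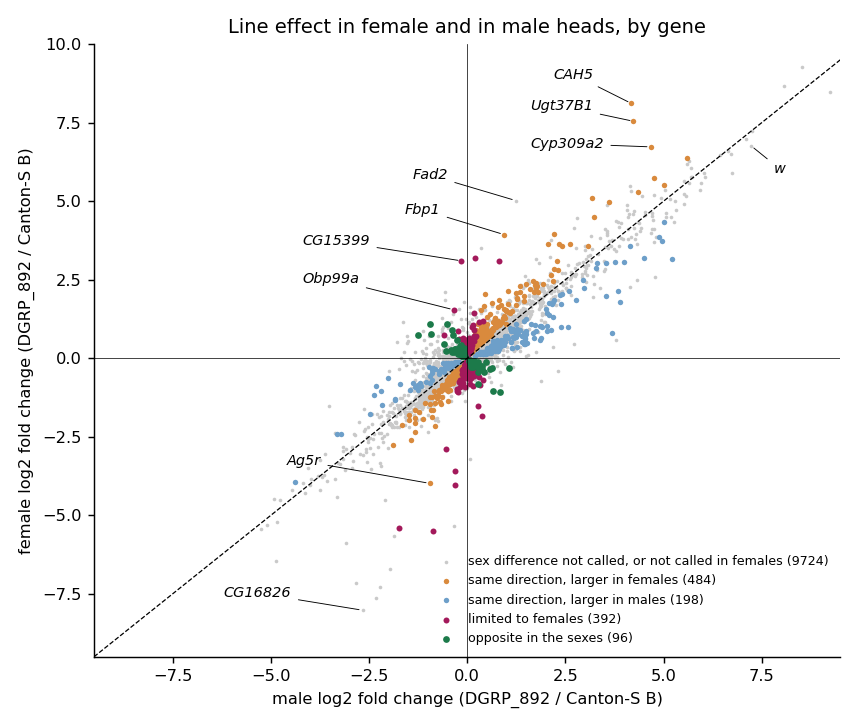
Line effect of each gene tested as the log2 fold change of DGRP_892 over Canton-S B, in females on the vertical axis and in males on the horizontal axis, with genes coloured by how the line effect differed between the sexes. Most genes lie along the dashed diagonal of equal effects. CG15399, CAH5, Ugt37B1 and Fbp1 lie above it, with a female effect more positive than the male effect, and Ag5r lies below it.

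Among the genes highest in DGRP_892 females were detoxifying and other enzymes that Canton-S B females hardly expressed. CAH5, a carbonic anhydrase gene (chromosome 3R, 31262598 to 31263878), had 12.1, 40.7 and 76.5 CPM as the lowest, median and highest of the 36 DGRP_892 female libraries, and 0, 0.122 and 0.674 CPM in Canton-S B females. No library of one line reached the other. The log2 fold change was 8.11 ± 0.26 in females (adjusted p = 1.47e-50, edgeR) and 4.18 ± 0.18 in males, and the sex difference of 3.93 ± 0.37 was called (adjusted p = 2.53e-15). The DGRP_892 level was 40.3 ± 16.01 CPM in females and 47.2 ± 10.9 CPM in males (mean ± SD, n = 36 each), whereas Canton-S B averaged 0.164 ± 0.186 CPM in females and 3.03 ± 3.13 CPM in males. The UDP-glycosyltransferase Ugt37B1 (chromosome 2L, 6225048 to 6226842) had 4.08, 9.24 and 13.7 CPM in DGRP_892 females and 0, 0.0319 and 0.149 CPM in Canton-S B females. These ranges also did not overlap, with a log2 fold change of 7.54 ± 0.19 in females and 4.23 ± 0.12 in males (sex difference 3.31 ± 0.28, adjusted p = 2.43e-17). The cytochrome P450 Cyp309a2 (chromosome 2L, 2564886 to 2573037) had 19.5, 39.3 and 56.97 CPM in DGRP_892 females and 0.0760, 0.309 and 1.68 CPM in Canton-S B females, a log2 fold change of 6.73 ± 0.12, against 4.67 ± 0.10 in males (sex difference 2.06 ± 0.17, adjusted p = 6.88e-18). For CAH5, Ugt37B1 and Cyp309a2 the female effect was thus the larger one. Within the deeper and the shallower libraries the sex difference was 3.22 ± 0.65 and 4.12 ± 0.47 for CAH5, 3.19 ± 0.41 and 3.56 ± 0.40 for Ugt37B1, and 2.22 ± 0.33 and 1.87 ± 0.22 for Cyp309a2. In the authors' batch-corrected table the Ugt37B1 sex difference was -0.36 (limma, adjusted p = 0.0554). There 20 was added to each value before the log2, so for a gene this low the value is on another scale than that of the counts.

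The other 7 of the 10 leading higher genes had no called sex difference. Cyp6a17, a P450, and w had log2 fold changes of 6.96 ± 0.09 and 6.76 ± 0.09 in females, beside 7.09 ± 0.09 and 7.22 ± 0.10 in males. For w, leaving out the Canton-S B female library of CT4 replicate 2 or that of CT20 replicate 3 gave a called sex difference, of -0.49 and -0.52 (adjusted p = 0.0402 and 0.0348). Cyp12d1-d, another P450, was at 1.64, 4.53 and 11.3 CPM in DGRP_892 females and at most 0.0601 CPM in Canton-S B females. Its counts are uncertain because the near-identical neighbour Cyp12d1-p can share reads. CG2861, CG31683, CG11893 and lncRNA:CR45997 had female log2 fold changes of 6.58 ± 0.12, 6.49 ± 0.15, 5.9 ± 0.11 and 7.24 ± 0.18. The median DGRP_892 female level of these 7 genes lay between 4.53 CPM for Cyp12d1-d and 122.7 CPM for Cyp6a17.

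Among the genes lowest in DGRP_892 females, CG16826 (chromosome 2L, 13347773 to 13349020) had 0, 0.165 and 57.6 CPM in DGRP_892 females and 0.0930, 136.7 and 774 CPM in Canton-S B females. The medians lay far apart, but the ranges overlapped: 23 of the 36 Canton-S B female libraries lay above the highest DGRP_892 female library. The log2 fold change was -8.02 ± 0.76 in females (adjusted p = 7.13e-17), and in males it was -2.66 ± 1.62 (adjusted p = 0.159), with a sex difference of -5.36 ± 2.32 that was not called (adjusted p = 0.122). Ag5r, which encodes an antigen 5-related secreted protein (chromosome X, 14784664 to 14786551), had 0.243, 0.929 and 4.35 CPM in DGRP_892 females and 0.557, 13.2 and 102.5 CPM in Canton-S B females. The log2 fold change of Ag5r was -3.98 ± 0.34 in females and -0.96 ± 0.38 in males, and the sex difference was -3.02 ± 0.52 (adjusted p = 4.57e-06). CG14419 and Osi2, a member of the Osiris gene family, had female log2 fold changes of -5.44 ± 0.14 and -5.32 ± 0.16 and male ones of -5.25 ± 0.15 and -5.11 ± 0.15, with no called sex difference. CG34456 was the one leading lower gene with the larger effect in males, -3.95 ± 0.10 in females and -4.39 ± 0.10 in males (sex difference 0.44 ± 0.15, adjusted p = 0.0348). CG30054 and CG8757 had female log2 fold changes of -3.92 ± 0.13 and -3.73 ± 0.09. The antisense RNAs asRNA:CR45822, asRNA:CR45835 and asRNA:CR45600 had -4.50 ± 0.14, -4.18 ± 0.12 and -4.03 ± 0.13. These antisense values are uncertain, because no source used here states whether reads were counted by strand.

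**Figure D2:**
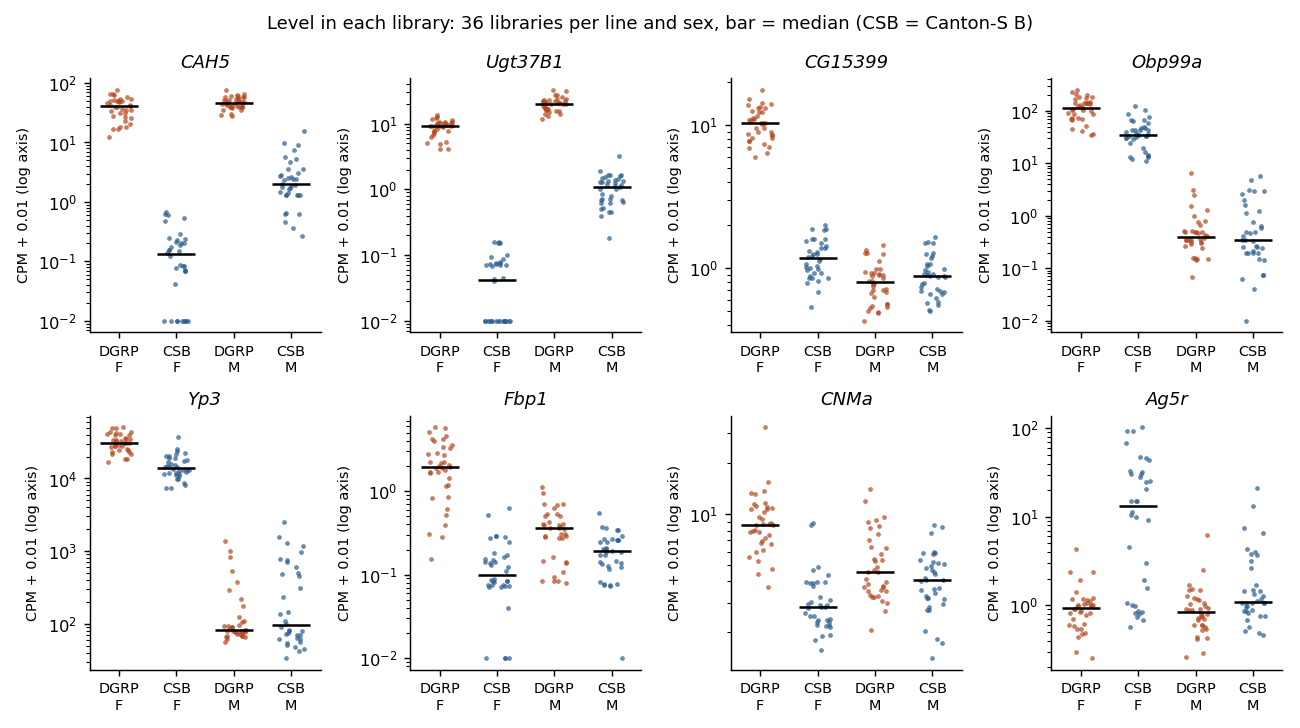
Level of 8 genes in each of 144 libraries, as CPM + 0.01 on a log axis with bars at the medians, with DGRP_892 left of Canton-S B for females and then for males. The female points of CAH5, Ugt37B1 and CG15399 are separate between the lines. For CG15399 the male points of both lines lie with the Canton-S B females.

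Of the 8 genes at least 2-fold higher in females and not called in males, CG15399 was the 1 whose female libraries did not overlap between the lines. It had 5.92, 10.3 and 17.5 CPM in DGRP_892 females and 0.524, 1.16 and 1.99 CPM in Canton-S B females (chromosome 2L, 2770884 to 2771776). All 36 DGRP_892 female libraries were above all 36 Canton-S B female libraries. In males the range was 0.418 to 1.43 CPM in DGRP_892 and 0.488 to 1.64 CPM in Canton-S B. The log2 fold change was 3.10 ± 0.09 in females (adjusted p = 2.16e-57) and -0.15 ± 0.10 in males (adjusted p = 0.225), with a sex difference of 3.24 ± 0.13 (adjusted p = 3.54e-40). In the deeper libraries alone the sex difference was 3.44 ± 0.24, and in the shallower libraries alone 3.34 ± 0.18.

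Obp99a, an odorant-binding protein gene of the female head fat body, had 34.2, 115.1 and 250.2 CPM in DGRP_892 females and 10.99, 35.1 and 125 CPM in Canton-S B females, with overlapping ranges. Male medians were 0.384 CPM in DGRP_892 and 0.336 CPM in Canton-S B. Its log2 fold change was 1.54 ± 0.18 in females and -0.35 ± 0.43 in males (sex difference 1.89 ± 0.54, adjusted p = 0.0088), and the sex difference was not called without replicate 1, 2 or 3, at 1.76, 1.37 and 2.05 (adjusted p = 0.102, 0.164 and 0.145), nor within the deeper libraries, at 0.76 ± 0.97, while it was 2.30 ± 0.53 within the shallower ones. Lgr4, a receptor with leucine-rich repeats of the relaxin receptor type, averaged 9.20 ± 2.74 CPM in DGRP_892 females and 4.36 ± 0.596 CPM in Canton-S B females, a log2 fold change of 1.06 ± 0.08 against 0.16 ± 0.08 in males (sex difference 0.90 ± 0.11, adjusted p = 6.97e-10). The other 5 of the 8 higher genes had DGRP_892 female medians under 1 CPM and are named after their values were seen. They were Eh, alpha-Est4aPsi, Cyp4ad1, CG31988 and fs(1)Yb. Eh encodes eclosion hormone, the neuropeptide of the moulting and emergence program, and had 0, 0.408 and 1.85 CPM in DGRP_892 females and 0, 0.0587 and 0.146 CPM in Canton-S B females, with medians of 0.0665 CPM in DGRP_892 males and 0.0664 CPM in Canton-S B males. Its female log2 fold change was 3.18 ± 0.36 and its sex difference 2.98 ± 0.55 (adjusted p = 2.37e-05). The 9 genes at least 2-fold lower were CG33109, CG34212, CG8708, CG30371, CG14327, blanks, lncRNA:CR45670, asRNA:CR45140 and asRNA:CR46005. The highest, CG33109 and CG34212, had Canton-S B female medians of 11.4 and 8.25 CPM. In a fit of females alone CG34212 was not called, at -5.42 ± 2.43 (adjusted p = 0.0507, edgeR). CG33109 ranged between 0 and 89.8 CPM over Canton-S B female libraries. Of these 17 genes, CG15399 and Lgr4 kept the called sex difference without each replicate number in turn.

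Of the genes with opposite effects Yp3 and Yp1 had the largest sex differences. Yolk proteins are lipase-like proteins that females secrete for uptake by the growing eggs. Yp3 had 16839, 31209 and 50614 CPM in DGRP_892 females and 7379, 13901 and 37069 CPM in Canton-S B females, with overlapping ranges. Its log2 fold change was 1.10 ± 0.25 in females (adjusted p = 8.25e-05) and -0.95 ± 0.25 in males (adjusted p = 0.000783), where medians were 82.97 CPM in DGRP_892 and 94.5 CPM in Canton-S B. The sex difference was 2.05 ± 0.36 (adjusted p = 6.34e-06), with 0.91 ± 0.63 within the deeper and 2.28 ± 0.53 within the shallower libraries. Yp1 had 26559, 43715 and 61989 CPM in DGRP_892 females and 12745, 25000.0 and 48332 CPM in Canton-S B females, a log2 fold change of 0.73 ± 0.31 that passed the threshold narrowly (adjusted p = 0.0378) and did not pass with the run of library numbers as a covariate (log2 fold change 0.57, adjusted p = 0.108) or without replicate 3 (0.62, adjusted p = 0.206). In a fit of females alone the Yp1 log2 fold change was 0.72 ± 0.08 (adjusted p = 1.92e-11, edgeR). Its sex difference of 1.99 ± 0.45 (adjusted p = 0.00061) was -1.28 in the authors' batch-corrected table (limma, adjusted p = 0.534). Yp2 medians were 20310.0 CPM in DGRP_892 females and 11517 CPM in Canton-S B females. Its female log2 fold change of 0.70 ± 0.34 was not called in the joint fit (adjusted p = 0.0714), and in a fit of females alone it was 0.68 ± 0.10 (adjusted p = 1.01e-07). In males yolk levels differed more than 10-fold between libraries within a line, for Yp3 between 55.8 and 1391 CPM in DGRP_892 and between 33.5 and 2540.0 CPM in Canton-S B.

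Other genes with opposite effects had smaller sex differences than Yp3 and Yp1. Erasp, Myo61F, a class I unconventional myosin, and CG10026 were higher in DGRP_892 females and lower in DGRP_892 males, with log2 fold changes of 0.91 ± 0.11, 0.57 ± 0.09 and 0.44 ± 0.05 in females and -0.40 ± 0.10, -0.25 ± 0.10 and -0.60 ± 0.05 in males. Ttc30, an intraflagellar transport gene of ciliated cells, went the other way, at 5.42, 7.66 and 9.82 CPM in DGRP_892 females and 10.4, 12.5 and 22.5 CPM in Canton-S B females. The female libraries of the lines did not overlap for Ttc30. Its log2 fold change was -0.81 ± 0.06 in females and 0.28 ± 0.06 in males, a sex difference of -1.09 ± 0.08 (adjusted p = 7.82e-21). CG15282 was -0.32 ± 0.11 in females and 1.06 ± 0.12 in males, and CG13796 -0.33 ± 0.08 and 0.58 ± 0.08. CG13012 and CG3568 had female log2 fold changes of -0.28 ± 0.06 and -0.28 ± 0.04 and male ones of 0.14 ± 0.06 and 0.10 ± 0.04.

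Counts over gene lists stand against 29.6% of all genes tested higher in DGRP_892 females, 30.4% lower and 12.7% with a called sex difference. The fat body list was mostly higher in DGRP_892 females. Of 20 members tested, 16 were higher and 1 lower, with a median log2 fold change of 0.75 against 0.00 over all genes tested, and 8 members had a called sex difference, 7 of them more positive in females. The summed level of the list was 16600, 23300 and 31800 CPM (lowest, median, highest) in DGRP_892 females and 7610, 10200 and 14000 CPM in Canton-S B females, which do not overlap. All 36 DGRP_892 sums lay above all 36 Canton-S B sums. In whole heads a change in the number of cells of a type and a change in RNA per cell cannot be told apart. Fbp1, the receptor for larval serum proteins, had 0.146, 1.96 and 5.80 CPM in DGRP_892 females and 0, 0.0895 and 0.619 CPM in Canton-S B females, against medians of 0.348 and 0.180 CPM in DGRP_892 and Canton-S B males. Its log2 fold change was 3.94 ± 0.24 in females and 0.93 ± 0.26 in males (sex difference 3.00 ± 0.37, adjusted p = 3.49e-10). Lsp2, a storage hexamerin, was higher in both sexes without a called sex difference, with medians of 5089 CPM in DGRP_892 females and 175 CPM in Canton-S B females and log2 fold changes of 4.12 ± 0.31 and 4.69 ± 0.32 in females and males. Several carriers and enzymes of lipid and sugar handling rose more in females, and are named after their values were seen. The lipoprotein apolpp had log2 fold changes of 1.13 ± 0.06 in females and 0.84 ± 0.06 in males. The lipid transfer particle Apoltp had 0.79 ± 0.04 and 0.43 ± 0.04, the lipid droplet protein Lsd-2 0.85 ± 0.06 and 0.56 ± 0.06, the microsomal transfer protein Mtp 0.84 ± 0.05 and 0.59 ± 0.05, and the trehalose synthase Tps1 0.73 ± 0.06 and 0.33 ± 0.06, in the same order. Pepck2, a gluconeogenic enzyme, was the 1 lower member, at -0.60 ± 0.12 in females and -0.54 ± 0.11 in males.

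Of 5 genes of the list of yolk proteins and other female-enriched head fat genes, 4 were higher in DGRP_892 females, and all 5 had a called sex difference. The satiety peptide gene fit was the exception to the female excess, with log2 fold changes of 1.00 ± 0.16 in females and 2.39 ± 0.16 in males (named after its values were seen). Of 6 male-enriched head fat genes 5 were higher and 1 was lower in DGRP_892 females. Lsp1alpha, a larval serum protein, had 2.26, 10.8 and 27.5 CPM in DGRP_892 females and 0, 0.288 and 0.860 CPM in Canton-S B females, with no overlap (log2 fold change 5.24 ± 0.22 in females and 5.52 ± 0.17 in males). Obp99b was higher by 1.99 ± 0.16 in females and 3.53 ± 0.14 in males (sex difference -1.54 ± 0.21, adjusted p = 9.4e-09), whereas the authors' batch-corrected table gave it a female log2 difference of -1.72. Cyp4d21 was lower in DGRP_892 females, at -0.30 ± 0.08, and 0.00 ± 0.07 in males, a sex difference called at the margin (adjusted p = 0.0498) and lost without the Canton-S B female library of CT20 replicate 3 (-0.28, adjusted p = 0.0696). Among genes of carbohydrate digestion 7 of 10 were higher, and the other 3 did not pass. The insulin-responsive glucosidase tobi was at 2.10 ± 0.18 in females and 1.35 ± 0.18 in males, the maltase Mal-B1 at 3.79 ± 0.10 and 4.10 ± 0.10. The amylase Amy-p was at 4.06 ± 0.22 and 3.55 ± 0.20, with reads that its near-identical copy Amy-d can share.

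**Figure D3:**
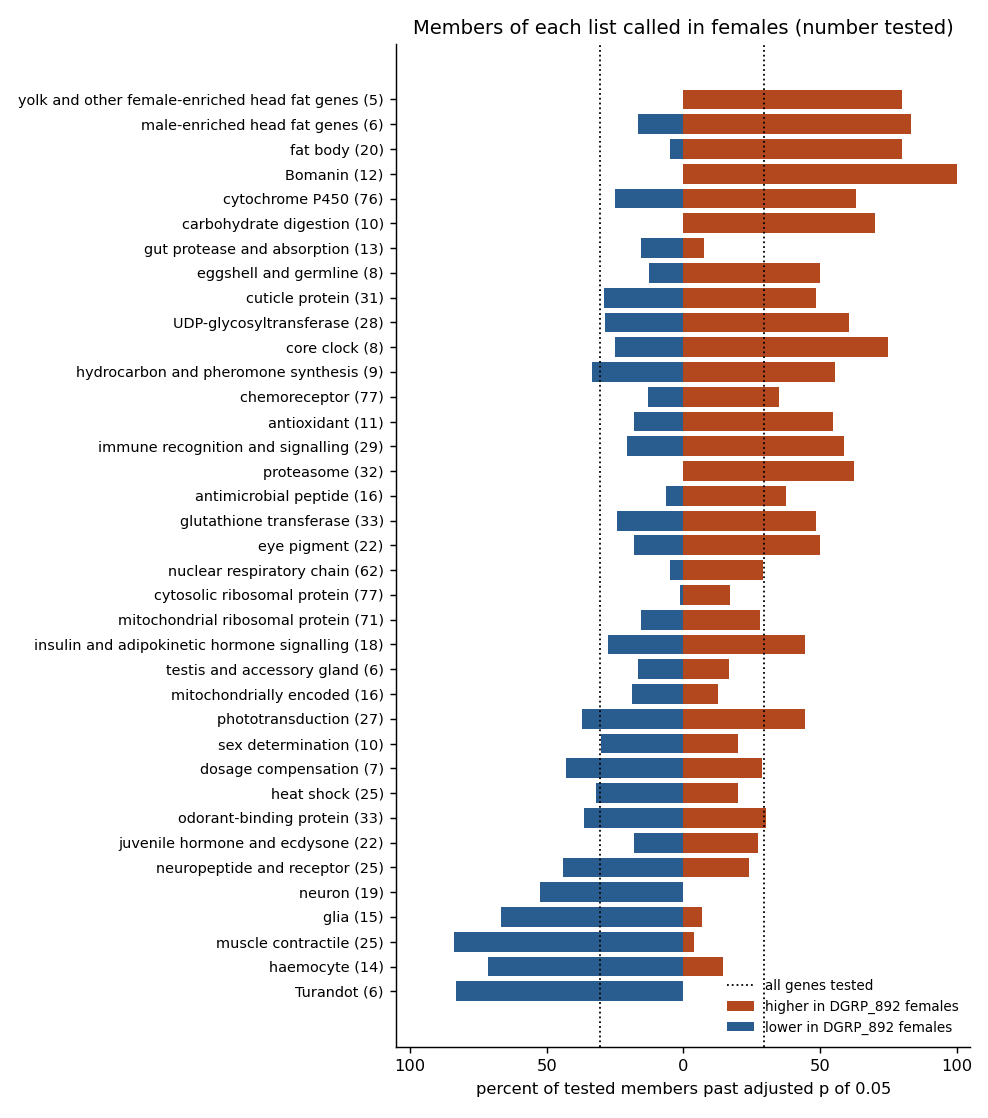
Percentage of the tested members of each gene list that were higher (bars to the right) or lower (bars to the left) in DGRP_892 females than in Canton-S B females at an adjusted p under 0.05, with dotted lines at the percentages over all genes tested (29.6% and 30.4%) and the number of members tested beside each name. The longest bars to the right are those of the Bomanin list and of the fat body lists, and the longest to the left those of muscle, Turandot and haemocyte genes.

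Of 9 genes of hydrocarbon and pheromone synthesis tested, 5 were higher and 3 lower in DGRP_892 females, with a median log2 fold change of 0.24 in females and -0.08 in males. Fad2, the desaturase that makes female dienes, had 0.201, 2.77 and 14.3 CPM in DGRP_892 females and 0, 0.0503 and 5.73 CPM in Canton-S B females. A single Canton-S B library, replicate 2 at CT8, gave the 5.73 CPM and all others were at or under 0.394 CPM. The elongase eloF, which lengthens these dienes, had 0, 0.428 and 2.35 CPM in DGRP_892 females and 0, 0 and 0.249 CPM in Canton-S B females. Both genes were at 0 in whole groups of 3 libraries, so their effects were taken from a fit with a mean and 24-h cosine terms per line and sex, chosen after seeing the data. There the female log2 fold change was 4.46 ± 0.34 for Fad2 (adjusted p = 9.72e-25) and 3.32 ± 0.32 for eloF (adjusted p = 3.26e-18). The sex difference was called for eloF (2.62 ± 0.70, adjusted p = 0.00485) and not for Fad2 (3.5 ± 1.69, adjusted p = 0.179), which was at most 0.185 CPM in DGRP_892 males and 0.166 CPM in Canton-S B males. Abundant enzymes upstream also differed in females, and are named after their values were seen. The desaturase Desat1 averaged 3890.3 ± 497 CPM in DGRP_892 females and 2953 ± 373 CPM in Canton-S B females, a log2 fold change of 0.40 ± 0.05, against 0.00 ± 0.05 in males (sex difference adjusted p = 1.68e-06). The fatty acid synthase FASN1 was at 0.24 ± 0.05 in females and -0.10 ± 0.05 in males (sex difference adjusted p = 0.000127). FASN2, the other fatty acid synthase of the list, was called higher in both sexes, without a called sex difference (adjusted p = 0.226). It was at 0.83 ± 0.15 in females and 1.25 ± 0.16 in males. The elongase bond was lower in females, at -0.44 ± 0.04, and at -0.08 ± 0.04 in males (sex difference adjusted p = 1.73e-06). Elo68alpha and Elo68beta, elongases, were lower in both sexes, at -2.38 ± 0.21 and -3.50 ± 0.35 in females, with Canton-S B female medians under 1 CPM. Elo68beta was also at 0 in whole groups, and the fit with cosine terms gave it -3.04 ± 0.31 in females.

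Cytochrome P450 enzymes oxidise foreign and internal lipophilic compounds. Of 76 tested, 48 were higher and 19 lower in DGRP_892 females, with a median log2 fold change of 0.49, and the summed level of 7500 to 12600 CPM in DGRP_892 females lay wholly above the 3680 to 5660 CPM in Canton-S B females. The sex difference was called for 27 of them, 14 more positive and 13 more negative in females. Cyp6g1, known for resistance to DDT, made the largest part of the difference, with 2242, 3983 and 5702 CPM in DGRP_892 females and 214, 329 and 566 CPM in Canton-S B females. Its ranges did not overlap, and its log2 fold change was 3.58 ± 0.07 in females and 3.08 ± 0.07 in males (sex difference 0.50 ± 0.09, adjusted p = 1.39e-05; named after its values were seen). Cyp6a23, the neighbour of Cyp6a17, had 29.2, 38.3 and 51.9 CPM in DGRP_892 females and 70.4, 92.9 and 121.5 CPM in Canton-S B females. Its log2 fold change was -1.23 ± 0.05 in females and -0.91 ± 0.05 in males (sex difference -0.32 ± 0.07, adjusted p = 0.000147). Cyp28d2 was also lower, at -0.96 ± 0.08 in females.

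UDP-glycosyltransferases and glutathione transferases attach sugar or glutathione to such compounds. Of 28 UDP-glycosyltransferases 17 were higher and 8 lower, and of 33 glutathione transferases 16 were higher and 8 lower, with 11 and 5 called sex differences. Ugt37E1 was higher by 4.41 ± 0.14, and Ugt302K1 and Ugt37A3 had -1.69 ± 0.09 and -1.57 ± 0.16 in females. Ugt37A1 moved in opposite directions, 1.08 ± 0.13 in females and -0.52 ± 0.16 in males (sex difference adjusted p = 1.6e-09; named after its values were seen). GstE1 averaged 112.1 ± 14.7 CPM in DGRP_892 females and 30.0 ± 6.94 CPM in Canton-S B females, with no overlap, a log2 fold change of 1.91 ± 0.05 in females and 1.87 ± 0.05 in males. GstD1, an enzyme that acts on DDT, was -0.99 ± 0.05 in females and -0.95 ± 0.05 in males. GstE5 was 1.79 ± 0.10 in females and 2.19 ± 0.10 in males (sex difference adjusted p = 0.0383, and -0.38 with an adjusted p of 0.0532 without the Canton-S B female library of CT20 replicate 3), and GstD5, under 1 CPM, -0.98 ± 0.27 in females. Among 11 antioxidant genes 6 were higher and 2 lower: Sod2 at 0.36 ± 0.05, Gclc, a subunit of the first enzyme of glutathione synthesis, at 0.33 ± 0.02 (0.19 ± 0.02 in males), Sod3 at -0.58 ± 0.03 and the thioredoxin Trx2 at -0.31 ± 0.07.

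Secreted stress and immune peptides split by family. Turandot genes encode humoral peptides released by the fat body under stress. Of 6 tested, 5 were lower in DGRP_892 females and for these 5 the sex difference was called, with the larger effect in males. TotA had 95.5, 253 and 688 CPM in DGRP_892 females and 343, 824 and 3075 CPM in Canton-S B females, with overlapping ranges, and log2 fold changes of -1.76 ± 0.16 in females and -2.48 ± 0.17 in males (sex difference 0.72 ± 0.22, adjusted p = 0.02). TotX was at -1.48 ± 0.12 in females and -2.16 ± 0.12 in males (adjusted p = 0.0025). In the authors' batch-corrected table the sex differences of TotA and TotX were -0.66 and -0.31 (limma, adjusted p = 0.542 and 0.692). TotM, TotC and TotB, named after their values were seen, had -1.19 ± 0.18, -1.06 ± 0.18 and -0.64 ± 0.28 in females and -2.37 ± 0.18, -2.20 ± 0.18 and -2.03 ± 0.25 in males. Each of the 5 sex differences lost its call without at least 1 replicate number. Bomanins are short peptides made on activation of the Toll pathway. All 12 were higher in DGRP_892 females, with a median log2 fold change of 0.71 in females and 1.09 in males. BomBc2 had 388, 664 and 1038 CPM in DGRP_892 females and 179, 288 and 516 CPM in Canton-S B females, a log2 fold change of 1.12 ± 0.07, and BomT2 1.08 ± 0.09. The sex difference was called for BomBc1, BomBc3, BomS1, BomS5 and BomT1, named after their values were seen. In each of these 5 the female effect, between 0.25 for BomT1 and 0.86 for BomS5, was smaller than the male one, between 0.70 for BomT1 and 1.69 for BomBc1. The BomS1 call in females was lost without the Canton-S B library of CT4 replicate 2 or that of CT20 replicate 3 (0.30 and 0.33, adjusted p = 0.0775 and 0.0544), and the BomS5 sex difference was 0.06 ± 0.17 within the deeper libraries.

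**Figure D4:**
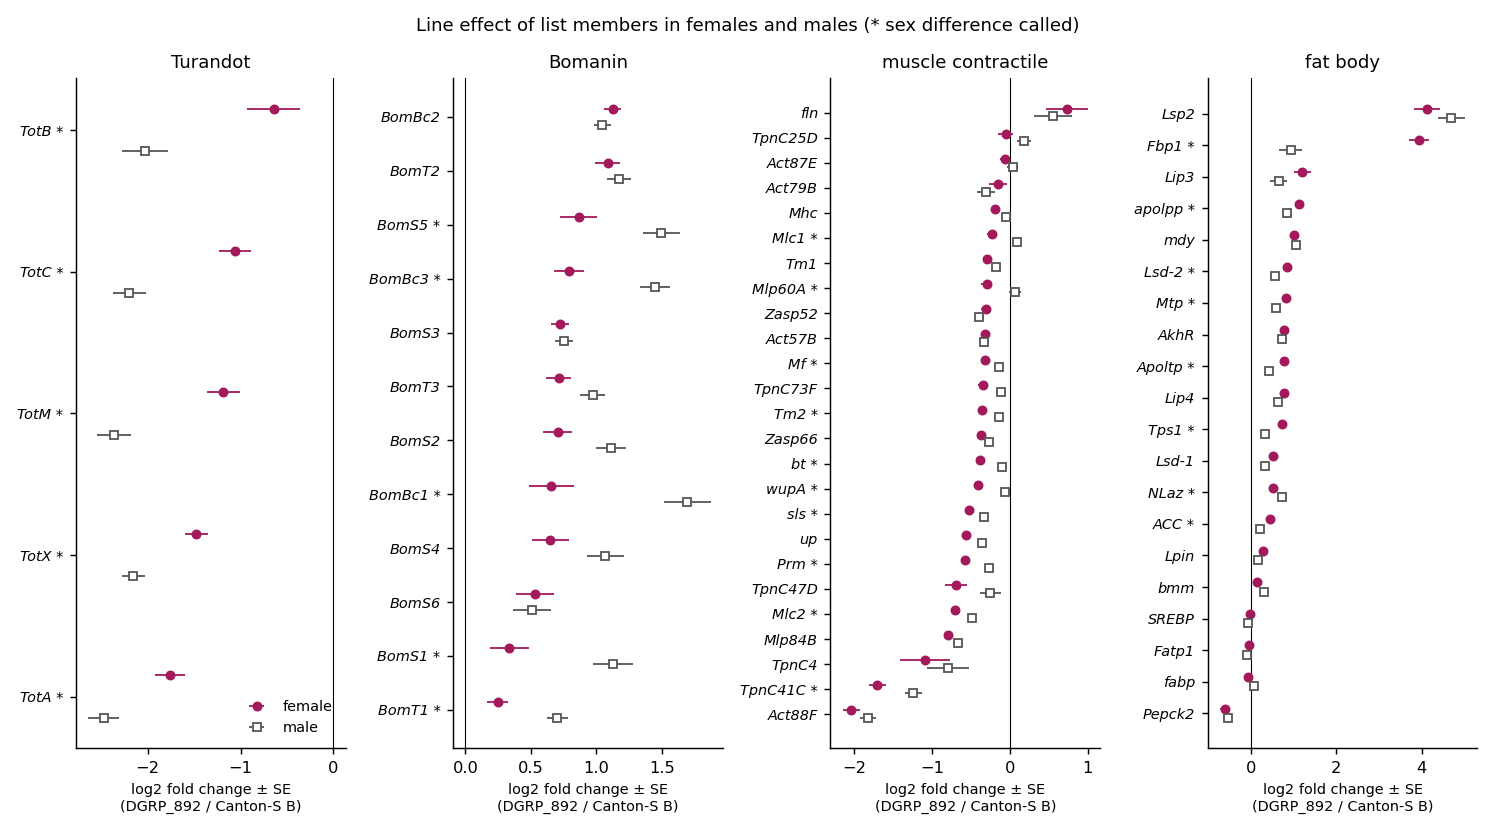
Female and male log2 fold changes of DGRP_892 over Canton-S B with their standard errors for members of the Turandot, Bomanin, muscle contractile and fat body lists. Members called for the sex difference carry a star. The 5 Turandot points are negative in both sexes and farther from 0 in males, the 12 Bomanin points are positive in both, and the 10 starred muscle genes are more negative in females.

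Of 16 antimicrobial peptide genes 6 were higher and 1 lower in DGRP_892 females. The defensin Def had 12.9, 34.05 and 57.9 CPM in DGRP_892 females and 2.35, 6.11 and 24.3 CPM in Canton-S B females, with log2 fold changes of 2.19 ± 0.13 in females and 1.61 ± 0.13 in males (sex difference 0.58 ± 0.19, adjusted p = 0.0229). The drosomycin-like gene Drsl4 was at 2.27 ± 0.10 and 2.21 ± 0.10, in the same order. The cecropin CecA1 was lower in females, at -1.10 ± 0.27, and at -0.21 ± 0.29 in males. Drosomycin itself, Drs, had -0.26 ± 0.22 in females (adjusted p = 0.302) and 1.16 ± 0.22 in males (sex difference -1.42 ± 0.31, adjusted p = 0.000433; named after its values were seen). Of 29 genes of immune recognition and signalling 17 were higher and 6 lower, with 8 called sex differences. The peptidoglycan amidase PGRP-SC2 was at 1.35 ± 0.22 in females, and GNBP1, a recognition protein of the Toll pathway, at 0.95 ± 0.03 in females and 1.08 ± 0.03 in males. The Imd pathway inhibitor pirk was lower, at -1.19 ± 0.08 in females and -0.82 ± 0.08 in males (sex difference adjusted p = 0.0104), and PGRP-SD was at -0.46 ± 0.08 in females.

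Muscle genes were lower in DGRP_892 females. Of 25 contractile genes 21 were lower and 1 higher, with a median log2 fold change of -0.35 in females and -0.25 in males, and the 10 called sex differences were all more negative in females. The summed level was 5320, 5880 and 9860 CPM in DGRP_892 females and 5690, 7930 and 9240 CPM in Canton-S B females, so the highest sum was in a DGRP_892 library. The flight muscle actin Act88F had 0.335, 2.01 and 5.42 CPM in DGRP_892 females and 4.09, 8.97 and 17.4 CPM in Canton-S B females, a log2 fold change of -2.04 ± 0.11 in females and -1.83 ± 0.10 in males. The troponin C gene TpnC41C had 5.11, 9.37 and 20.3 CPM in DGRP_892 females and 14.4, 33.4 and 63.9 CPM in Canton-S B females. It was at -1.70 ± 0.11 in females and -1.24 ± 0.11 in males (sex difference -0.46 ± 0.15, adjusted p = 0.0247), and the sex difference was 0.12 ± 0.28 within the deeper and -0.66 ± 0.20 within the shallower libraries. The more abundant Prm (paramyosin), sls (the titin-like Sallimus) and wupA (troponin I), named after their values were seen, had -0.57 ± 0.05, -0.52 ± 0.03 and -0.40 ± 0.05 in females and -0.26 ± 0.04, -0.33 ± 0.03 and -0.07 ± 0.05 in males. The 1 higher member was fln (flightin), at 0.73 ± 0.27 and under 1 CPM. With ERCC scaling 12 members were called, all of them lower.

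Markers of other cell types were also lower in part. Of 14 haemocyte genes 10 were lower and 2 higher: the phagocyte receptor NimC1 was -0.97 ± 0.05 in females and -0.92 ± 0.05 in males, the prophenoloxidase PPO3 -1.49 ± 0.22 in females, and PPO1 0.21 ± 0.09, a call lost with DESeq2's scaling (0.20, adjusted p = 0.0529) and without the Canton-S B female library of CT20 replicate 3 (0.18, adjusted p = 0.094). The GATA factor srp, shared with the fat body, was 0.28 ± 0.06 in females and -0.16 ± 0.06 in males (sex difference adjusted p = 4.04e-05). Of 19 neuronal genes 10 were lower and 9 not called, led by the dopamine transporter DAT at -0.74 ± 0.04 and Gad1, the GABA-synthesising enzyme, at -0.55 ± 0.04. Among the 9 not called were elav, nSyb, brp, Syn and futsch, at -0.05, -0.03, -0.01, -0.01 and 0.08 in females. Summed neuronal levels overlapped, with 3600 to 8370 CPM in DGRP_892 females and 4220 to 8140 CPM in Canton-S B females. Of 15 glial genes 10 were lower and 1 higher. Mdr65, a transporter of the blood-brain barrier glia, was -0.59 ± 0.04 in females and -0.23 ± 0.04 in males (sex difference adjusted p = 3.59e-06), nrv2 -0.39 ± 0.04 and the astrocyte gene alrm 0.31 ± 0.08 in females. With ERCC scaling 2 neuronal and 1 glial genes were called lower, and 1 glial gene higher.

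Of 18 genes of insulin and adipokinetic hormone signalling 8 were higher and 5 lower in DGRP_892 females, with 7 called sex differences, against 29.6% higher, 30.4% lower and 12.7% with a sex difference over all genes tested. Ilp3, an insulin-like peptide of the brain's insulin-producing cells, had 14.3, 21.6 and 28.9 CPM in DGRP_892 females and 3.601, 6.20 and 10.4 CPM in Canton-S B females, with no overlap. Its log2 fold change was 1.74 ± 0.08 in females and 2.38 ± 0.09 in males (sex difference -0.64 ± 0.12, adjusted p = 1.35e-05). Ilp5, made in the same cells, was at 1.29 ± 0.10 in females and 1.56 ± 0.10 in males. The insulin-binding antagonist ImpL2, named after its values were seen, was at 0.55 ± 0.07 in females and 0.09 ± 0.07 in males (sex difference adjusted p = 0.00069). Sdr, a secreted decoy of the insulin receptor, was lower in females, at -0.40 ± 0.03, and at -0.04 ± 0.03 in males (sex difference adjusted p = 5.98e-12). Thor, the translation inhibitor 4E-BP, was -0.37 ± 0.06 and -0.89 ± 0.06, in the same order. The activin-like ligand daw, also named after its values were seen, was 0.30 ± 0.06 in females and -0.32 ± 0.06 in males (sex difference adjusted p = 3.78e-09).

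Of 25 neuropeptide and receptor genes 6 were higher and 11 lower, with 3 called sex differences. CNMa, which encodes the CNMamide peptide, had 3.71, 8.68 and 32.6 CPM in DGRP_892 females and 1.56, 2.81 and 8.82 CPM in Canton-S B females, with overlapping ranges. The log2 fold change of CNMa was 1.55 ± 0.14 in females and 0.36 ± 0.14 in males (sex difference 1.19 ± 0.20, adjusted p = 3.61e-06), and the sex difference was 0.67 ± 0.47 within the deeper and 1.4 ± 0.22 within the shallower libraries. Pdfr, the receptor for the clock neuropeptide PDF, averaged 121.6 ± 16.6 CPM in DGRP_892 females and 73.7 ± 11.9 CPM in Canton-S B females, a log2 fold change of 0.73 ± 0.05, against 0.35 ± 0.05 in males (sex difference adjusted p = 1.44e-05). SIFa and CCAP were lower, at -0.87 ± 0.06 and -0.73 ± 0.14 in females. Of 22 genes of juvenile hormone and ecdysone 6 were higher and 4 lower, both shares under those over all genes tested. The ecdysone 20-hydroxylase shd was 0.54 ± 0.10 in females and -0.10 ± 0.10 in males, and the juvenile hormone epoxide hydrolase Jheh3 -0.40 ± 0.05 in females and -0.11 ± 0.05 in males (sex difference adjusted p = 0.00047 for shd and 0.00309 for Jheh3). Jheh1 was 0.47 ± 0.04 and the esterase Jhe -2.19 ± 0.16 in females.

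Of 27 phototransduction genes 12 were higher and 10 lower in DGRP_892 females, with 2 called sex differences. The carotenoid uptake receptor ninaD had 31.5, 55.7 and 74.6 CPM in DGRP_892 females and 2.08, 4.82 and 7.30 CPM in Canton-S B females, with no overlap, and log2 fold changes of 3.51 ± 0.06 in females and 3.59 ± 0.07 in males. The photoreceptor adhesion protein chaoptin, chp, was at 2.04 ± 0.05 and 1.94 ± 0.05, in the same order. The carotenoid oxygenase ninaB was -0.56 ± 0.04 and the rhodopsin Rh7 -0.41 ± 0.04 in females. Of 22 eye pigment genes 11 were higher and 4 lower, with 3 called sex differences: beside w, the kynurenine hydroxylase cn was 1.82 ± 0.20, and the pteridine genes pr and se were -0.42 ± 0.06 and -0.27 ± 0.06 in females.

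Of 33 odorant-binding protein genes 10 were higher and 12 lower, near the 29.6% and 30.4% over all genes tested, with 9 called sex differences (12.7% over all genes). Obp99d was 3.08 ± 0.14 in females and 3.75 ± 0.15 in males, Obp56b 4.13 ± 0.32, Obp56c -1.65 ± 0.19 and Obp56f -1.59 ± 0.21 in females. Of 77 chemoreceptor genes 27 were higher and 10 lower, with 3 called sex differences. Or65a and Or65b, neighbouring odorant receptors, were 3.62 ± 0.19 and 3.58 ± 0.19, and Gr59d and Ir51a -2.53 ± 0.27 and -1.76 ± 0.16 in females. Or67d, the receptor for the male pheromone cis-vaccenyl acetate, had 1.62, 2.55 and 4.69 CPM in DGRP_892 females and 0.625, 1.504 and 3.16 CPM in Canton-S B females, a log2 fold change of 0.87 ± 0.12 against -0.24 ± 0.12 in males (sex difference 1.11 ± 0.17, adjusted p = 3.13e-07; named after its values were seen). Of 31 cuticle protein genes 15 were higher and 9 lower, with 12 called sex differences. Cpr72Ec had 19.2, 34.8 and 66.4 CPM in DGRP_892 females and 146, 250.1 and 434 CPM in Canton-S B females, with no overlap (-2.89 ± 0.14 in females and -3.09 ± 0.14 in males). Cpr50Ca and Cpr51A were 4.57 ± 0.18 and 2.38 ± 0.10, and Cpr49Af -2.12 ± 0.12 in females. The sex difference of Cpr49Af was -0.46 ± 0.16 and only just called (adjusted p = 0.04997), and the call was lost with the replicate block and without either Canton-S B female library that stands apart.

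Genes of protein synthesis and breakdown moved by small amounts. Of 77 cytosolic ribosomal protein genes 13 were higher and 1 lower in DGRP_892 females, a share under that of all genes. The sex difference was called for 11 of them, each more positive in females, a share near the 12.7% over all genes tested, with list medians of 0.06 in females and -0.07 in males. RpL32 was 0.25 ± 0.07 in females and 0.07 ± 0.07 in males, RpL34b 0.25 ± 0.07 and -0.17 ± 0.07 in the same order, and RpS21 -0.45 ± 0.09 in females. This count changed with the scaling and the library class: with ERCC scaling 1 was called, lower, with the run as a covariate 32 were higher and 1 lower, and within the deeper and the shallower libraries 7 and 3 were higher. Of 32 proteasome genes 20 were higher, among them Rpn11 at 0.28 ± 0.04 and Prosalpha6 at 0.26 ± 0.04, and all 20 calls were lost with ERCC scaling. Of 71 mitochondrial ribosomal protein genes 20 were higher and 11 lower, with mRpL14 at 0.43 ± 0.04 (0.17 ± 0.04 in males), mRpL50 at 0.43 ± 0.06, mRpS31 at -0.55 ± 0.03 and mRpL34 at -0.41 ± 0.13. Of 62 nuclear respiratory chain genes 18 were higher and 3 lower. ND-13B was 0.32 ± 0.05, and COX4L, an isoform under 2 CPM, -3.05 ± 0.25 in females, with ND-49L at 0.86 ± 0.36 and COX6AL at -0.64 ± 0.27, both under 1 CPM. Of 16 mitochondrially encoded genes 2 were higher and 3 lower, led by mt:ND1 at 0.45 ± 0.16, mt:CoIII at 0.37 ± 0.12, mt:ND6 at -1.30 ± 0.33 and mt:tRNA:Thr-TGT at -0.80 ± 0.26.

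Of 25 chaperone and heat shock genes, 5 were higher in DGRP_892 females and 8 lower, and without the Canton-S B female library of CT4 replicate 2 the counts were 7 and 4. Hsc70-4, the constitutive chaperone, was 0.44 ± 0.05 in females. The Hsp70 copies Hsp70Bc and Hsp70Ba were 2.39 ± 0.44 and -2.12 ± 0.48, and are uncertain because near-identical copies share reads, and Hsp60C was -1.90 ± 0.68 at under 1 CPM, against 0.17 in the authors' batch-corrected table. Among 10 genes of sex determination 2 were higher and 3 lower, each by less than 0.3 on the log2 scale: tra2 at 0.21 ± 0.03, ix at 0.12 ± 0.04, fru at -0.15 ± 0.05 and tra at -0.14 ± 0.06. Among 7 genes of dosage compensation 2 were higher and 3 lower. lncRNA:roX1 was 0.54 ± 0.13 in females, mof 0.23 ± 0.04, mle -0.13 ± 0.03 and lncRNA:roX2 -0.75 ± 0.33. Without the Canton-S B female library of CT20 replicate 3, lncRNA:roX1 had a called sex difference (0.67, adjusted p = 8.76e-04) and the lncRNA:roX2 call was lost (-0.55, adjusted p = 0.146). With the replicate number as a block these values were 0.51 (adjusted p = 0.045) and -0.73 (adjusted p = 0.0508). In the authors' batch-corrected table the female difference of lncRNA:roX2 was 0.13. Without the library of CT4 replicate 2, tra was -0.12 (adjusted p = 0.052), and within the deeper libraries it was 0.03 ± 0.08. Of 8 eggshell and germline genes 4 were higher and 1 lower, with Cp7Fa at 2.10 ± 0.09, Cp7Fb at 1.78 ± 0.09 and aub at -0.84 ± 0.10 (-1.26 ± 0.09 in males). Of 6 testis and accessory gland genes Acp36DE was 3.97 ± 0.40 and betaTub85D -0.63 ± 0.21, and of 13 gut genes Npc1b was 0.74 ± 0.24, Jon99Ciii -2.26 ± 0.36 and lab -0.23 ± 0.09.

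As means over the 12 circadian times, all 8 core clock genes differed between the lines in females, 6 higher and 2 lower in DGRP_892. These times cover 24 h, which is less than the long period of DGRP_892. In the clock, Clk and cyc drive per, tim, vri, Pdp1 and cwo, whose products act back on them, and cry encodes a blue-light receptor. vri averaged 244 ± 55.3 CPM in DGRP_892 females and 141.7 ± 34.7 CPM in Canton-S B females, a log2 fold change of 0.80 ± 0.07. tim was 0.44 ± 0.03, Clk -0.43 ± 0.05 and cry -0.43 ± 0.05. Male log2 fold changes were 0.62, 0.32, -0.49 and -0.46 for these 4 genes, with adjusted p of the sex difference between 0.0754 for tim and 0.862 for cry. Called in females and not in males were per and cwo, named after their values were seen. They were at 0.357 ± 0.065 and 0.225 ± 0.040 in females and at 0.117 ± 0.065 and 0.080 ± 0.040 in males. Neither had a called sex difference (adjusted p = 0.0705 and 0.0785, edgeR).

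The test of a line difference that moved over 24 h called 8 genes (0.0734%) in females. It used 24-h terms for both lines, although DGRP_892 was studied for its long period. After 3 days in constant darkness the same circadian time need not be the same phase in both lines, which was not tested. For per, the DGRP_892 mean of 3 libraries was lowest at CT8, at 63.6 ± 15 CPM, and highest at CT18, at 109.2 ± 18.4 CPM. Canton-S B was at 36.5 ± 3.74 CPM at CT8 and at its highest at CT16, at 110.1 ± 20.5 CPM (line by time adjusted p = 0.0156). The lowest means of the lines lay farther apart than their highest means. For gol, the DGRP_892 means spanned 143.5 ± 9.24 to 226.7 ± 22 CPM and the Canton-S B means 95.8 ± 3.6 to 259.1 ± 21 CPM (adjusted p = 0.00605). For CG14186 they spanned 73.3 ± 7.37 to 84.6 ± 1.62 CPM in DGRP_892 and 63.1 ± 8.65 to 97.4 ± 5.7 CPM in Canton-S B (adjusted p = 0.0098). For CG33965 they spanned 1.95 ± 0.274 to 3.15 ± 0.293 CPM in DGRP_892 and 0.577 ± 0.286 to 2.27 ± 0.0731 CPM in Canton-S B (adjusted p = 0.00187). The other 4 were Hsp26, Hsp27 and Hsp68, whose highest Canton-S B means were at CT4, and BaraA1, whose highest DGRP_892 mean was 3.69 ± 6.35 CPM at CT12. Without the Canton-S B library of CT4 replicate 2 the 3 heat shock genes were not called and the other 5 genes were. None of the 8 was called without replicate 1. Without replicate 2 only CG33965 and gol of the 8 were called, and without replicate 3 only CG33965, BaraA1 and Hsp27. These 8 genes were named after their values were seen.

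**Figure D5:**
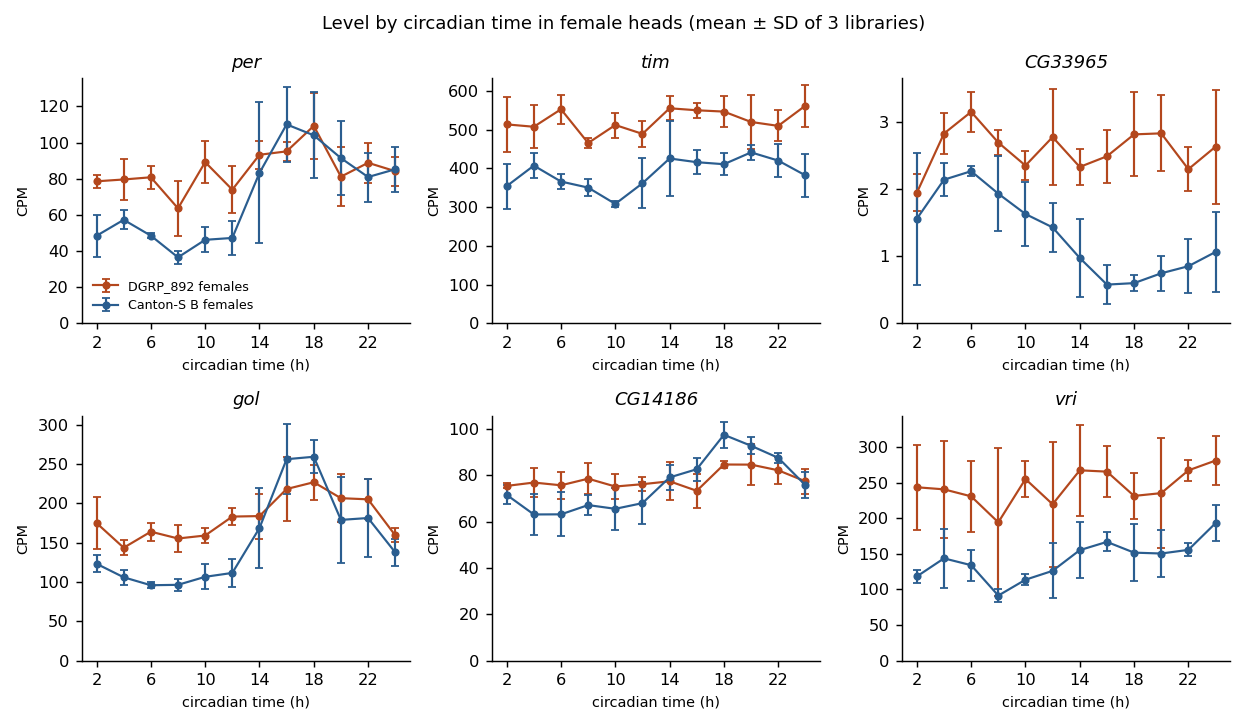
Female levels over 12 circadian times in CPM, as the mean ± SD of 3 libraries, for per, tim, CG33965, gol, CG14186 and vri in DGRP_892 and Canton-S B. DGRP_892 females lie above Canton-S B females around CT8 for per, while the highest means are alike, at 109.2 and 110.1 CPM.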

How the data were processed

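RNA of 144 libraries of fly heads was sequenced, 3 for each of 48 groups of line, sex and circadian time. The authors deposited a table of read counts per gene. Per the submitters' processing notes FastQC 0.11.5, STAR 2.5.3a and featureCounts 1.5.2 were used, and per the labels reads were mapped to FlyBase release 6. No source used here states whether reads were counted by strand, and antisense, overlapping and near-identical genes are uncertain for it. Reads without molecular identifiers are not independent molecules. The authors' second deposited table holds batch-corrected, normalized values, treated here as a score because some lie below 0, and it served as an alternative. Its values below 0 were set to 0, and 20 was added to each value before the log2. This shrinks log2 differences of genes with low values.

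From the counts, 92 ERCC transcripts (0.387% of all counts) and 1 empty column were left out, and 10894 of 17381 genes passed a filter on low counts (minimum count 10, total 15). Of all genes 17239 matched the release 6 annotation of Ensembl, which gave symbols and positions. Libraries were scaled with TMM, and a robust quasi-likelihood model with 48 group means was fitted to all 144 libraries (edgeR 4.0.16, limma 3.58.1, R 4.3.3). The female contrast was the mean over 12 times of DGRP_892 minus Canton-S B, the male contrast was the same in males, and the sex difference was the female minus the male contrast. P-values were adjusted by the Benjamini-Hochberg method over all 10894 genes, with a threshold of 0.05. Standard errors of log2 fold changes follow the ± sign. Levels are CPM of the TMM-scaled library size. Line by time was tested on 24-h cosine and sine terms. Genes with a group at 0 (384) were refitted with those terms, as a choice made after the data were seen. Effects of Fad2 and eloF were taken from the refit, while the other named genes keep joint-fit values. Refitted sex differences were 2.55 ± 0.47 for Eh, 2.70 ± 0.79 for CG31988 and -2.99 ± 0.84 for CG8708. Refitted female log2 fold changes were -1.70 ± 0.38 for Jon99Ciii and 6.21 ± 0.15 for CG31683. Female libraries held 11.7 to 36.5 M counts. Runs of 24 library numbers, and a deeper and a shallower class among them, are called by those names since the labels do not say what they are. All values within a class come from fits with a mean and 24-h cosine and sine terms per line and sex, in place of the group means.

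The labels say that the collection was repeated 3 times, so replicate numbers mark shared collections. Deviations of DGRP_892 and Canton-S B female libraries with the same number at the same time correlated between -0.289 and 0.629 (median 0.0539, 36 pairs), and those with other numbers between -0.594 and 0.404 (median -0.0205, 72 pairs). Genes were named by rule: with at least 5 CPM in the higher line and 1 sign at all 12 times, the 10 highest and 10 lowest in females, up to 10 each way of those limited to females, and, without the condition on times, 5 each way of those opposite in the sexes. Of each of 37 gene lists the 2 highest and 2 lowest called members were named, with 6 label checks. The part of the study, the lists and the tests were chosen with earlier results of these data known. Alternatives were other scalings, filters, tools (DESeq2 1.42.0) and covariates, and leaving out libraries. The model was also run on simulated counts that held no run, time or collection effects, so that run cannot say how the model behaves with such effects. Plots used matplotlib 3.10.9.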

Additional observations from a re-analysis of the deposited data

Results flagged for a closer look

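The sex difference of the line effect, as the female minus the male log2 fold change of DGRP_892 over Canton-S B, was called for 88 of the genes named in the text, more positive in females for 48 and more negative for 40. Of these, 41 were named after their values were seen. All were picked out because the line effect differed between females and males in edgeR's quasi-likelihood test of that difference (adjusted p under 0.05), and 12.7% of all genes tested were called by it. Of the 87 taken from the joint fit, 41 were called without each of the 3 replicate numbers in turn, 37 with ERCC scaling, 13 in the deeper libraries alone and 67 in the shallower libraries alone. The 41 are Ag5r, Apoltp, BomBc1, CAH5, CG10026, CG13012, CG13796, CG15282, CG15399, CG3568, CNMa, Cyp309a2, Cyp6a23, Cyp6g1, Desat1, Drs, Erasp, FASN1, Fbp1, Ilp3, Lgr4, Mdr65, Myo61F, Obp99b, Or67d, Pdfr, Prm, RpL34b, Sdr, Thor, Tps1, Ttc30, Ugt37A1, Ugt37B1, Yp3, bond, daw, fit, mRpL14, sls and srp, and the other 46 lost the call without at least 1 replicate number.

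Among genes higher in DGRP_892 in both sexes, with the larger effect in females, the differences were 3.93 for CAH5, 3.31 for Ugt37B1, 2.06 for Cyp309a2, 3.00 for Fbp1 and 1.19 for CNMa, and 0.75 for tobi, 0.58 for Def, 0.50 for Cyp6g1 and 0.38 for Pdfr. Smaller ones were 0.29 for apolpp, 0.36 for Apoltp, 0.29 for Lsd-2, 0.24 for Mtp, 0.39 for Tps1, 0.25 for mRpL14 and 0.14 for Gclc. For eloF the fit with cosine terms gave 2.62. Among genes lower in DGRP_892 they were -3.02 for Ag5r, -0.32 for Cyp6a23, -0.37 for pirk, -0.46 for TpnC41C, -0.35 for Mdr65, -0.46 for Cpr49Af, -0.31 for Prm and -0.19 for sls where the female effect was larger, and 0.44 for CG34456, 0.72 for TotA, 0.68 for TotX, 1.18 for TotM, 1.14 for TotC, 1.38 for TotB, 0.52 for Thor and 0.43 for aub where the male effect was larger.

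The genes called in females and not in males, at 2-fold or more, had differences of 3.24 for CG15399, 2.98 for Eh, 2.30 for CG31988, 1.89 for Obp99a, 1.26 for fs(1)Yb, 0.90 for Lgr4, 0.86 for Cyp4ad1 and 0.80 for alpha-Est4aPsi when higher in DGRP_892 females. When lower they had -4.65 for CG33109, -3.72 for CG8708, -3.68 for CG34212, -3.28 for CG30371, -2.37 for lncRNA:CR45670, -2.21 for asRNA:CR45140, -1.81 for blanks, -0.84 for asRNA:CR46005 and -0.76 for CG14327. Under 2-fold there were 1.11 for Or67d, 0.65 for shd, 0.45 for ImpL2, 0.40 for Desat1 and 0.33 for FASN1, and -0.36 for Sdr, -0.36 for bond, -0.34 for wupA, -0.30 for Cyp4d21, -0.30 for Jheh3 and -0.10 for mle. Yp2 and Drs, called in males only in the joint fit, had 2.23 and -1.42. In a fit of females alone Yp2 was called, at 0.68 ± 0.10 (adjusted p = 1.01e-07, edgeR), and Drs was not.

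Genes with opposite effects had differences of 2.05 for Yp3, 1.99 for Yp1, 1.6 for Ugt37A1, 1.30 for Erasp, 1.04 for CG10026, 0.82 for Myo61F, 0.61 for daw, 0.44 for srp and 0.42 for RpL34b when higher in DGRP_892 females, and of -1.38 for CG15282, -1.09 for Ttc30, -0.91 for CG13796, -0.42 for CG13012 and -0.38 for CG3568 when lower. Genes higher in DGRP_892 in both sexes with the larger effect in males had -1.54 for Obp99b, -1.39 for fit, -1.04 for BomBc1, -0.79 for BomS1, -0.67 for Obp99d, -0.66 for BomBc3, -0.64 for Ilp3, -0.63 for BomS5, -0.46 for BomT1, -0.40 for GstE5 and -0.13 for GNBP1.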

How the results depend on the processing

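Of the 6529 female calls, 6468 were also called with DESeq2's scaling and 6472 by DESeq2, and the median log2 fold change over all genes lay between -0.0177 and 0.0107 in the alternatives tried. With ERCC scaling 2645 female genes were called (1470 higher, 1175 lower in DGRP_892), 2366 male genes, 63 sex differences more positive and 45 more negative in females, and 6 opposite genes. The deeper libraries alone gave 4275 female genes (2073 lower), 3472 male genes, 42 sex differences more positive and 24 more negative in females, 3 higher and 2 lower genes limited to females and 7 opposite genes, and the shallower ones 53 opposite genes. Of the 1380 sex differences 1347 had the same sign in both classes. Leaving out each replicate number, or 1 of the 2 Canton-S B female libraries that stand apart, gave 361 to 722 sex differences more positive and 295 to 700 more negative in females, 5 to 8 higher and 4 to 10 lower genes limited to females, 46 to 97 opposite genes and 0 to 9 line by time genes. The lowest of these sex difference counts came without replicate 3 and replicate 2. The run covariate gave 5 line by time genes, as did leaving out the CT4 replicate 2 library of Canton-S B females. Without a filter 1317 genes differed at least 2-fold. The authors' batch-corrected table gave 374 genes in all at 2-fold and 1035 sex differences more negative in females. Its log2 was taken after adding 20 to each value, so its 2-fold count is on another scale. A 1.5-fold limit gave 19 higher and 27 lower genes limited to females, and DESeq2 gave 19 higher. With the replicate number as a block 6593 female genes, 1452 sex differences and 100 opposite genes were called, and the calls of named genes that changed were those of lncRNA:roX1 and lncRNA:roX2, and the sex differences of Hsc70-4 (0.18, adjusted p = 0.0271 in edgeR, newly called) and Cpr49Af (-0.46, adjusted p = 0.051). Cpr49Af also lost its sex difference call without either of those 2 libraries.

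Values that changed sign were those of mle with ERCC scaling (sex difference 0.0094), tra within the deeper libraries (0.0259 in females), TpnC41C and BomS5 there (sex difference 0.12 and 0.0574), Hsp26 and Hsp27 in females, between -0.0738 and 0.50 and between -0.38 and 0.40 as replicate numbers or single libraries were left out, and Hsp68 within the shallower libraries (-1.02). In the batch-corrected table they were the sex differences of Ugt37B1 (-0.36), Yp1 (-1.28), Yp2 (-0.23), TotA (-0.66), TotX (-0.31), Ugt37A3 (-0.61), Obp56f (-0.53), fs(1)Yb (-0.0128) and Cyp6d2 (0.0846), and the female differences of Obp99b (-1.72), lncRNA:roX2 (0.13), Hsp60C (0.17) and betaTub85D (0.0752). The cause was not tested. Depth limits genes under 1 CPM.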

Other observations

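A set of genes was high in the same Canton-S B female libraries and near 0 in most DGRP_892 females. The set was put together after its values were seen, so no test is given for it as a set. It holds CG16826, Ag5r, CG33109, CG34212, CG45080, CG43679, CG13947, whe, lcs and the lysozyme gene LysP. In Canton-S B females the summed level was 1.81, 3.42 and 12.5 CPM in the 3 libraries of CT8, and 251, 277 and 1607 CPM in those of CT22. Libraries of 1 time point differed widely, as at CT16, with 1.83, 149 and 1070 CPM. The 10 genes ranked highest on average in the 4 Canton-S B female libraries CT22 replicate 3, CT18 replicate 1, CT20 replicate 3 and CT16 replicate 3. These 4 were picked by those ranks, so high levels in them follow from the choice. CG16826 was at 774, 693, 758 and 552 CPM in them, whe at 301, 306, 194 and 146 CPM, and lcs at 129.6, 137.6, 77.6 and 62.6 CPM. The Canton-S B female medians of these 3 genes were 136.7, 26.8 and 18.7 CPM. LysP was lower, at 7.1, 9.98, 11.7 and 6.85 CPM in the same 4 libraries, with a median of 2.17 CPM. For CG13947, 2 of the 4 were among its own 4 highest Canton-S B female libraries. In DGRP_892 females the summed level of the 10 genes was 0.787, 23.2 and 127.8 CPM in the 3 libraries of CT24, 65.3 CPM in the highest library of CT16, and at most 16 CPM in all other libraries. The mean over times for these genes therefore averages over libraries that differ strongly within a line, and what sets them apart was not tested.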
